A study of Mus musculus with 6 samples.

Results

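Solute carriers are membrane proteins that move nutrients, cofactors, ions and metabolites across the plasma membrane and the membranes of organelles. Their genes carry symbols that start with Slc and a family number. The genes described here are all deposited rows with such a symbol except Slc2a4, Slc3a2, Slc25a20 and Slc27a1. By this rule 73 genes were members, of 3162 genes held in each library. They comprised 17 mitochondrial carriers of the Slc25 family and 56 genes of other families. The annotation names 371 protein-coding Slc genes, 77 of which were held, and the others were not analysed here.

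Bulk RNA was sequenced from the fat pad beside the epididymis, a visceral white adipose depot, of wild-type male C57BL/6J mice aged 16 weeks. One group was fed normally (3 libraries), and the other was starved for 24 h (3 libraries). The series' design text calls the 3 libraries of a group biological replicates, and no library of one group is paired with one of the other. Values are FPKM (fragment counts normalised to transcript length and to the library's mapped fragments), which may be compared between genes. The labels name no transgene, Cre line or drug. Titles of the fed libraries end in NC and those of the fasted libraries begin with WT, and what the letters stand for is not given here. Any difference that goes with these titles cannot be told apart from fasting.

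Members of the Slc25 family sit mostly in the inner mitochondrial membrane and link the metabolism of the matrix to that of the cytosol. In fat cells, citrate leaves mitochondria through the citrate carrier and is split in the cytosol to supply acetyl-CoA for fatty acid synthesis. Carriers of other families bring amino acids, sugars, carnitine, vitamins and metals into the cell, or move them in and out of lysosomes, endosomes and the endoplasmic reticulum.

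Depth per library is unknown, and summed FPKM over the genes held was 190382 to 209201 in fed and 180058 to 188061 in fasted libraries. Spearman correlations were taken across genes. For the members they ranged from 0.961 to 0.982 within a group and from 0.742 to 0.889 between libraries of different groups. For all genes held they ranged from 0.973 to 0.985 within a group and from 0.832 to 0.926 between groups. As the genes held differ between the groups, the lower values between groups are in part built in. The genes held are a chosen set that differs between these same 6 libraries: of 2999 tested, 3 had a log2 fold change between -0.1 and 0.3, and none (0) of these was a member. Of the adipocyte markers, Aoc3, Lep and Plin1 were held, 3 of 10 listed. All 3 fell, and their summed level was 1685 to 2194 FPKM in fed and 422 to 787 in fasted libraries. The 4 endothelial markers held of 10 rose, from a sum of 176 to 217 up to 283 to 414 FPKM. The 5 erythroid markers held of 7 rose, from 1892 to 2800 up to 3955 to 10140 FPKM. Of 3 fibroblast or progenitor markers held of 10, 2 rose and 1 fell, with sums of 579 to 863 FPKM fed and 1159 to 1759 fasted. By the test given below, 41.1% of all tested genes rose and 49.4% fell. As the genes held differ between the groups, a marker held could hardly be unchanged, and the changes of those not held are unknown. The part of these markers in the results for Slc genes was not tested. The other cell type lists had at most 1 gene held. In bulk tissue, fewer cells of a type and less RNA per cell cannot be told apart.

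Of the 73 members, 67 reached a mean of 1 FPKM across the libraries and were tested. Among these 31 rose and 28 fell in fasted tissue, and 8 did not pass (limma on log2(FPKM + 1), Benjamini-Hochberg adjusted p under 0.05 over 2999 genes). Of all genes tested 41.1% rose and 49.4% fell by the same rule, against 46.3% and 41.8% of the tested members, so these shares lie near the background. Fed and fasted values did not overlap for 33 members that were higher and 34 that were lower when fasted, beside 41.9% and 51.5% of all 3162 genes. The mean FPKM at least doubled in 22 members, without Slc24a5, whose fed mean was 0. The share among all genes was 19.9%, with genes of that kind counted. The mean at least halved in 14 members (16.7% of all genes). With median-ratio scaling, which lifts the median log2 fold change of all tested genes from -0.34 to -0.15, 32 members rose and 15 fell, beside 41.2% and 26.2% of all genes. When the adjustment ran over all 55450 annotated genes, with genes not tested given the largest p, 4 members rose and 7 fell (background 5.74% and 6.4%).

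**Figure D1:**
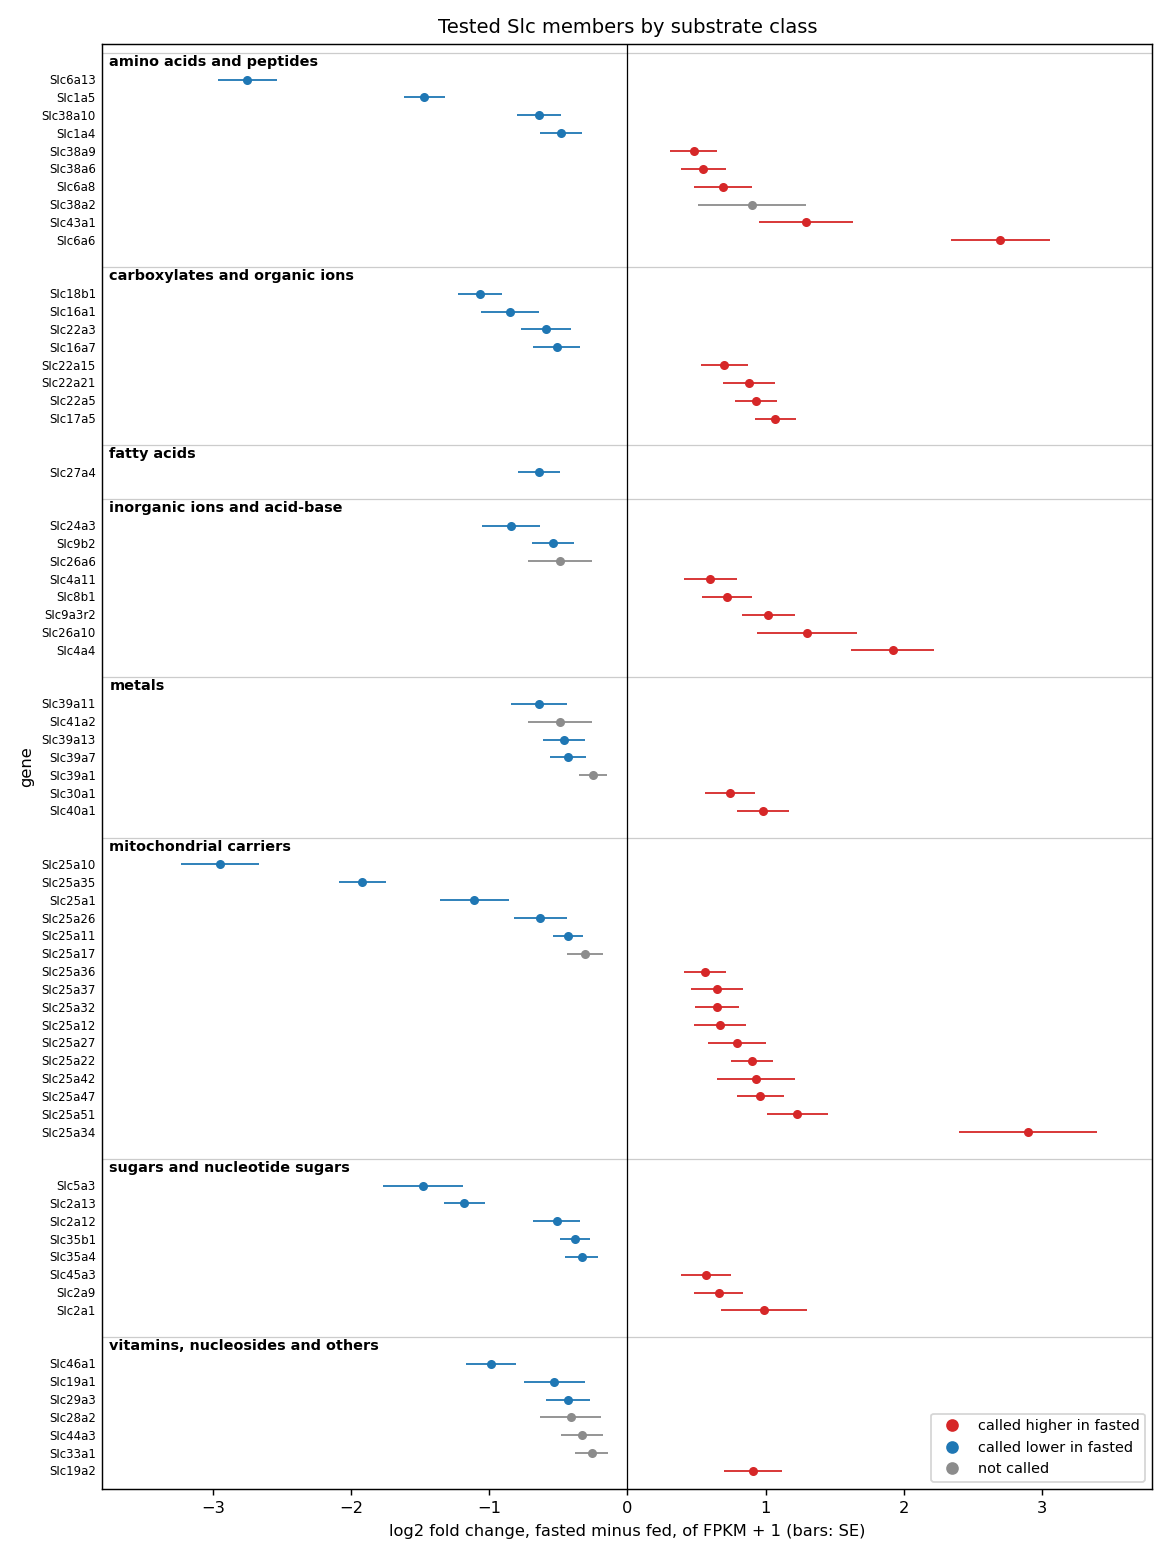
Log2 fold change (fasted minus fed, of FPKM + 1) on the x axis for 65 of the 67 tested Slc members on the y axis, grouped by substrate class, with bars of 1 SE; red marks genes called higher in fasted tissue, blue those called lower and grey those not called (limma). Every class with more than 1 tested gene has points on both sides of 0, and the range runs from -2.95 for Slc25a10 to 2.90 for Slc25a34.

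The mitochondrial carriers changed in both directions and held both ends of this range. Of 17 Slc25 members, all tested, 10 rose, 6 fell and 1 did not pass, beside 41.1% and 49.4% of all tested genes. Fed and fasted values did not overlap for any of the 17, as for 93.4% of all genes held. Their median log2 fold change was 0.65, against -0.34 for all tested genes and -0.33 for the 50 tested members of other families, of which 21 rose and 22 fell. Few genes held have a change near 0, so such a median falls on the side of the majority and does not measure a shift of the whole set. No test of the difference between these sets was made. In fed tissue the 6 that fell had a median of 58.7 FPKM (12.3 to 260) and the 10 that rose had a median of 5.73 FPKM (0.33 to 45.4). Fed values enter the fold change, so this contrast is in part built in. It was also seen in other families, with fed medians of 19.8 FPKM for the 22 that fell and 3.64 for the 21 that rose. The FPKM summed over all 17 carriers was lower in every fasted library, at 679 ± 163 (SD, n = 3) fed and 474 ± 43.0 fasted (n = 3), although more carriers rose than fell. Without Slc25a1 the sums were 369 to 490 fed and 307 to 395 fasted, and they overlapped.

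The carriers were divided by substrate after their values were seen, so a shared direction within a group is only descriptive. Carriers of citrate, dicarboxylates and oxoglutarate exchange intermediates of the TCA cycle for one another or for phosphate. All of these fell (3 of 3), beside 49.4% of all tested genes. Slc25a10 encodes the dicarboxylate carrier, which exchanges malate or succinate for phosphate, and occupies chromosome 11 from 120491840 to 120499187, plus strand (GRCm38). It measured 86.0, 129 and 54.5 FPKM in fed replicates 1 to 3, and 10.0, 9.0 and 11.2 FPKM in fasted replicates 1 to 3. The fed libraries were spread widely, whereas the fasted libraries were close together and all far below them. Its log2 fold change was -2.95 ± 0.28 (SE; limma adjusted p = 0.000545, and 0.0101 over all annotated genes), and mean FPKM was 8.91 times higher in fed tissue. Slc25a1, the citrate carrier gene on the minus strand of chromosome 16 (17925223 to 17928219), measured 182, 377 and 223 FPKM fed and 122, 105 and 118 fasted. It was the most abundant Slc25 member in both groups, and fed replicate 2 stood above the other fed libraries. Its log2 fold change was -1.11 ± 0.25 (limma adjusted p = 0.00696), -0.80 without fed replicate 2, and it missed the threshold over all annotated genes (adjusted p = 0.129). Slc25a11, the oxoglutarate-malate carrier gene of the malate-aspartate shuttle, fell least of these (-0.43 ± 0.11), from 51.7 ± 3.08 to 38.1 ± 1.05 FPKM, and was not called with median-ratio scaling (limma adjusted p = 0.072). Summed over these 3 genes, fed libraries held 318 to 561 FPKM and fasted libraries 151 to 171.

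Both mitochondrial carriers of amino acids that were held rose, beside 41.1% of all tested genes. Slc25a22, a glutamate carrier gene, measured 53.1, 41.9 and 41.2 FPKM fed and 89.9, 92.4 and 74.2 FPKM fasted. All fasted libraries were above all fed ones, and the log2 change was 0.90 ± 0.15 (limma adjusted p = 0.00278, and 0.0514 over all annotated genes). Slc25a12, which encodes an aspartate-glutamate carrier of the malate-aspartate shuttle, was less abundant and went from 3.43 ± 0.73 to 6.05 ± 1.32 FPKM (0.67 ± 0.19). The shuttle's other carrier gene held, Slc25a11, thus fell while Slc25a12 rose.

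Cofactor and nucleotide carriers divided, with 4 rises, 2 falls and 1 gene that did not pass among 7. Of all tested genes, 41.1% rose and 49.4% fell. Slc25a26, the S-adenosylmethionine carrier gene, fell (-0.63 ± 0.19), but it was not called without fed replicate 3, fasted replicate 1 or fasted replicate 2, nor with median-ratio scaling (adjusted p = 0.0892). Slc25a17, whose product serves peroxisomes, was 38.0 ± 4.73 FPKM fed and 30.4 ± 1.51 fasted and missed the threshold (limma adjusted p = 0.0518). The rises were those of Slc25a51, Slc25a42, Slc25a32 and Slc25a36. Slc25a51 imports NAD and went from 25.8 ± 2.05 to 63.6 ± 19.1 FPKM (1.23 ± 0.22). Slc25a42 imports coenzyme A and measured 19.8, 12.5 and 17.4 FPKM fed and 37.0, 42.0 and 20.8 FPKM fasted. Fasted replicate 3 was close to the highest fed library, and the rise (0.93 ± 0.28) was not called without fed replicate 2 or fasted replicate 1 (limma adjusted p = 0.0502 and 0.0533). Slc25a32, a folate and FAD carrier gene, rose by 0.65 ± 0.16 on the log2 scale, and Slc25a36, a pyrimidine nucleotide carrier gene, by 0.56 ± 0.15.

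Of the remaining mitochondrial members, Slc25a37, which encodes the iron importer mitoferrin-1, rose from 6.65 ± 1.78 to 10.8 ± 1.41 FPKM (0.65 ± 0.19). The gene is known for its role in red cell precursors, and the erythroid markers held rose in the same libraries, as given above. In fed replicates 1 to 3 it measured 5.62, 8.70 and 5.63 FPKM beside erythroid sums of 1892, 2800 and 2558 FPKM. In fasted replicates 1 to 3 it measured 12.3, 9.47 and 10.7 FPKM beside sums of 7204, 3955 and 10140 FPKM. Within the fed group replicate 2 was highest for both, and replicates 1 and 3 were nearly equal for Slc25a37 but not for the erythroid sum. In the fasted group replicate 2 was lowest for both, whereas replicate 1 was highest for Slc25a37 and replicate 3 for the erythroid sum. The part of red cell RNA in this rise was not tested. Slc25a27, of the uncoupling protein group, rose at low levels from 1.37 ± 0.34 to 3.13 ± 0.86 FPKM (0.79 ± 0.21). Slc25a47 rose from 1.26 ± 0.34 to 3.37 ± 0.22 FPKM (0.96 ± 0.17).

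Slc25a34 and Slc25a35, related carriers whose substrates are not stated here, moved in opposite directions. Slc25a34, on the minus strand of chromosome 4 (141618824 to 141623821), measured 0.36, 0.11 and 0.52 FPKM in fed and 7.11, 22.5 and 3.99 FPKM in fasted libraries. It was near 0 in every fed library, and fasted replicate 2 was far above the other fasted libraries. With a fed mean of 0.33 FPKM, it reached the mean of 1 FPKM needed for testing only through its fasted values. Its log2 fold change was 2.90 ± 0.50 (limma adjusted p = 0.00311), 2.27 without fasted replicate 2 and 4.48 with a pseudocount of 0.1, and it missed the threshold over all annotated genes (adjusted p = 0.0574). Slc25a35, on the plus strand of chromosome 11 (68968131 to 68974365), measured 37.1, 49.7 and 35.3 FPKM fed and 9.47, 8.77 and 11.5 FPKM fasted. All fasted libraries were well below the fed ones (-1.92 ± 0.17; limma adjusted p = 0.000414, and 0.00766 over all annotated genes). Exons of Slc25a35 overlap those of Rangrf on the opposite strand by 1151 bases, so its values may include reads of that gene.

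**Figure D2:**
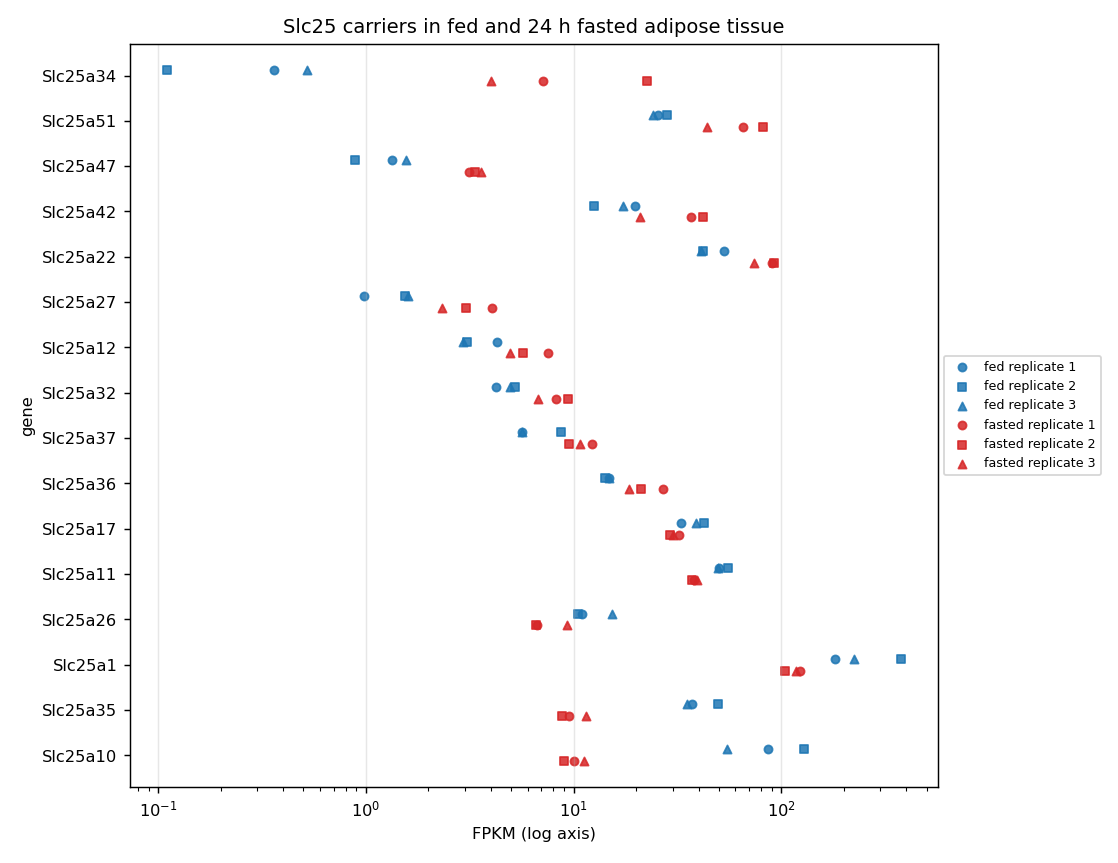
FPKM (log axis) of 16 of the 17 Slc25 carriers in each of the 3 fed (blue) and 3 fasted (red) libraries, 1 symbol shape per replicate number, with genes on the y axis ordered by log2 fold change. Blue and red symbols do not overlap in any row; the carriers at the bottom, such as Slc25a10 and Slc25a1, are high when fed, and Slc25a34 at the top lies under 1 FPKM in all fed libraries.

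The libraries contributed unevenly to these differences. Of the fed libraries, replicate 2 had the highest value for 6 of the 7 Slc25 genes whose fasted values were all lower, and for 63.6% of such genes among all those held. Fasted replicate 3 was the fasted library nearest to fed for 8 of the 10 Slc25 genes whose fasted values were all higher, and for 70.8% of such genes among all held. Leaving out each library in turn gave 9 to 10 Slc25 rises and 5 to 7 falls. In every one of those fits 9 of the 10 rises and 5 of the 6 falls were called.

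To show sequence beside these opposite changes, the 250 bases before each RefSeq start (GRCm38.p6) were searched on both strands for the E-box CACGTG, a motif bound by several factors of sugar and sterol metabolism. It was present for 6 of 56 members with an entry (10.7%) and for 6.86% of all 27018 genes with one. Of the called members with a match, Slc43a1, which rose, is not printed. The stretches of the other 3 are given from 5′ to 3′ along the gene's strand, with the E-box in capitals. Their printed bases lie outside annotated exons. The first base of the motif lies 239, 200 and 187 bases before the start in the order given.
Slc25a1, chr16:17928426-17928469, minus strand: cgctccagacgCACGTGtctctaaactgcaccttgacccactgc
Slc16a1, chr3:104638437-104638496, plus strand: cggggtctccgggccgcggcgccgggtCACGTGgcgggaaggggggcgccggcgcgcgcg
Slc25a36, chr9:97111196-97111255, minus strand: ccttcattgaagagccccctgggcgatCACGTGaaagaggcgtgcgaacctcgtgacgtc
Slc25a1 and the lactate and ketone body transporter gene Slc16a1 fell, whereas Slc25a36 rose, so the same letters stood before genes of either direction. A match describes the sequence and is not evidence of binding. Searched the same way, GTAAACA (3.54% of all genes), TGATGNAAT (0.911%) and TCAAGGTCA (0.422%) were in no member's window (0 of 56), and TCACNCCAC (1.23%) was in that of Slc9a3r2.

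Outside the mitochondrial family, the counts given for each substrate class describe the genes held and stand beside 41.1% rises and 49.4% falls among all 2999 tested genes. No test of a difference between classes, or from all genes, was made. The plot of the distribution of changes shows that the 50 tested members of other families followed all tested genes closely, with a nearly empty interval around 0 in each set.

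**Figure D3:**
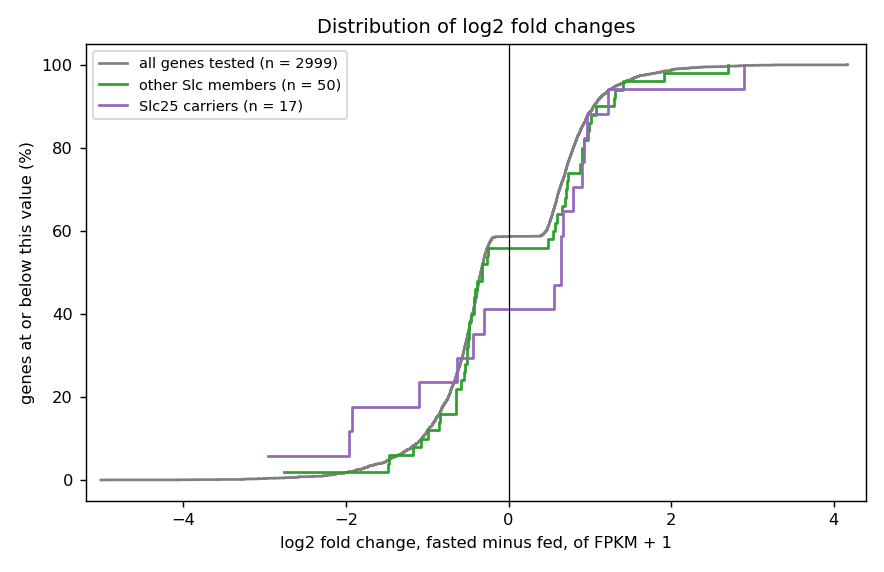
Cumulative percentage of genes (y axis) at or below each log2 fold change (x axis, fasted minus fed, of FPKM + 1) for all 2999 genes tested (grey), the 50 tested members of other Slc families (green) and the 17 Slc25 carriers (purple). The purple curve reaches 0 at a lower percentage than the others, and its left tail holds Slc25a10 and Slc25a35. With few genes near 0, the medians (0.65 against -0.33 and -0.34) fall on the side of the majority in each set.

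Among carriers of amino acids and related compounds, 5 rose, 4 fell and 1 did not pass of 10. The most abundant member of all was Slc1a5, which encodes the neutral amino acid and glutamine transporter ASCT2 and lies on the plus strand of chromosome 7 (16781340 to 16798274). It measured 1215, 966 and 984 FPKM fed and 338, 377 and 425 FPKM fasted. The groups were far apart, and the log2 change was -1.47 ± 0.15 (limma adjusted p = 0.000651, and 0.012 over all annotated genes). Slc1a5 made up much of the summed level of the members, which was 2537 ± 133 FPKM fed and 1753 ± 66.4 fasted. Without it the sums were 1383 to 1662 FPKM fed and 1256 to 1435 fasted, and they overlapped. Its relative Slc1a4 also fell (-0.48 ± 0.15), a call lost without fasted replicate 2 (adjusted p = 0.052) and with median-ratio scaling (0.0516).

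Transporters of taurine and related amino compounds moved furthest in this class. Slc6a13, a gene for a GABA and taurine transporter on the plus strand of chromosome 6 (121300227 to 121337733), measured 47.8, 47.9 and 46.0 FPKM fed and 6.28, 4.28 and 8.51 FPKM fasted. The fed values were nearly the same, and all fasted values were far below them. Mean FPKM was 7.43 times higher in fed tissue (log2 fold change -2.75 ± 0.21; limma adjusted p = 0.000339, and 0.00626 over all annotated genes). Slc6a6, which encodes the sodium-dependent taurine transporter and lies on the same strand of chromosome 6 (91684053 to 91759066), measured 13.5, 5.26 and 5.31 FPKM fed and 70.2, 55.5 and 37.7 FPKM fasted. Fed replicate 1 was the highest fed library and was still far below the lowest fasted one. The rise was 6.79-fold in mean FPKM (2.70 ± 0.36; limma adjusted p = 0.00143, and 0.0265 over all annotated genes). Slc6a8, the creatine transporter gene of the same family, rose by 0.69 ± 0.21 on the log2 scale, and the call was lost without fed replicate 3 (adjusted p = 0.0531).

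The other amino acid transporters went both ways. Slc43a1, a transporter gene for branched-chain and other large neutral amino acids, measured 28.8, 26.9 and 65.8 FPKM fed and 84.7, 120 and 78.3 fasted. Fed replicate 3 was close to the fasted libraries, and the rise was 1.29 ± 0.34 with it and 1.70 without it. In the Slc38 family, Slc38a10 measured 40.9, 42.9 and 44.2 FPKM fed and 22.0, 27.1 and 32.9 fasted. Its groups did not overlap, and it fell (-0.64 ± 0.16; limma adjusted p = 0.00856). Slc38a6 rose (0.55 ± 0.16), as did Slc38a9 (0.48 ± 0.17), which encodes a lysosomal arginine sensor for mTORC1. The call for Slc38a9 was kept in 1 of the 6 fits that left out a library, the one without fasted replicate 3. Slc38a2, the gene of the glutamine and alanine transporter SNAT2, was 18.6, 17.7 and 13.6 FPKM fed and 39.6, 51.4 and 15.4 fasted. Fasted replicate 3 lay among the fed libraries, and the difference (0.90 ± 0.39) missed the threshold (limma adjusted p = 0.0567), whereas it passed without that library (1.4; adjusted p = 0.00318) and with median-ratio scaling (adjusted p = 0.0392).

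Carriers of carboxylates and organic ions divided evenly, with 4 rises and 4 falls among 8 tested of 10. Both carnitine transporter genes held rose. Slc22a5 (OCTN2), which brings in the carnitine needed to move long-chain fatty acids into mitochondria, measured 13.4, 10.1 and 12.9 FPKM fed and 25.3, 25.5 and 20.8 fasted. The groups were well apart (0.93 ± 0.15; limma adjusted p = 0.00269, and 0.0497 over all annotated genes). Slc22a21, which lies 58305 bases from it on chromosome 11, measured 1.70, 1.45 and 1.13 FPKM fed and 4.47, 2.91 and 3.07 fasted (0.88 ± 0.19). All its fasted libraries were higher, but the genes are close relatives and may share reads. Slc25a20, which passes acylcarnitines into mitochondria and is not a member, also rose (0.83 ± 0.13).

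Monocarboxylate transporter genes fell. Slc16a1 (MCT1), which carries lactate, pyruvate and ketone bodies, measured 17.6, 25.7 and 29.8 FPKM fed and 15.2, 10.9 and 12.5 fasted. Its groups lay close together at their edges and did not overlap (-0.85 ± 0.21; limma adjusted p = 0.00882). Slc16a7 (MCT2) fell by less (-0.51 ± 0.17), and its call was lost without fed replicate 1, fasted replicate 1 or fasted replicate 2 and with median-ratio scaling (adjusted p = 0.14).

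Vesicular and lysosomal members of this class moved in opposite directions. Slc17a5 encodes sialin, which exports sialic acid from lysosomes. It measured 5.0, 4.0 and 5.11 FPKM fed and 11.1, 11.9 and 9.83 fasted, without overlap (1.07 ± 0.15; limma adjusted p = 0.00152, and 0.0281 over all annotated genes). Slc18b1, a vesicular polyamine transporter gene, measured 28.8, 36.2 and 33.5 FPKM fed and 18.0, 12.9 and 14.6 fasted. It was lower in each fasted library (-1.07 ± 0.16; limma adjusted p = 0.00194, and 0.0359 over all annotated genes). Slc22a15 rose (0.70 ± 0.17). The organic cation transporter gene Slc22a3 fell (-0.59 ± 0.18), a call lost without fed replicate 2 or fasted replicate 2 and with median-ratio scaling (adjusted p = 0.08).

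Genes of ion and acid-base transport had 6 rises, 2 falls and 1 gene that did not pass among 9 tested of 11. Slc4a4 encodes the sodium-bicarbonate cotransporter NBCe1 (chromosome 5, plus strand, 88886818 to 89239653). It measured 2.87, 1.46 and 1.82 FPKM fed and 10.2, 15.9 and 6.67 fasted. The fasted libraries differed among themselves and were all above the fed ones (1.92 ± 0.30; limma adjusted p = 0.0024, and 0.0444 over all annotated genes). Slc9a3r2 matches the rule by its symbol, but it encodes the scaffold protein NHERF2 and not a transporter. It measured 69.3, 52.1 and 68.0 FPKM fed and 139, 150 and 99.9 fasted, and the groups were well apart (1.02 ± 0.19; limma adjusted p = 0.00377).

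Calcium handling genes in this class went both ways. Slc8b1, which encodes the mitochondrial sodium-calcium exchanger NCLX, measured 14.9, 22.4 and 23.1 FPKM fed and 35.0, 30.3 and 34.7 fasted. Fed replicate 1 was the lowest library, and all fasted values were higher than all fed ones (0.72 ± 0.18; limma adjusted p = 0.00904). Slc24a3, a potassium-dependent sodium-calcium exchanger gene, fell from 30.9 ± 2.95 to 17.2 ± 5.75 FPKM (-0.84 ± 0.21). Slc26a10 rose (1.30 ± 0.36, and 0.88 without fasted replicate 1), and its exons overlap B4galnt1 on the opposite strand. Slc4a11 rose (0.60 ± 0.19), a call lost without fed replicate 2, fed replicate 3 or fasted replicate 1, Slc9b2 fell (-0.54 ± 0.15), and the anion exchanger gene Slc26a6 was not called (-0.49 ± 0.23; limma adjusted p = 0.0706).

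Metal transporters showed 2 rises, 3 falls and 2 genes that did not pass among 7. The rises were those of exporters. Slc40a1 encodes ferroportin, the cellular iron exporter, and measured 1.35, 2.30 and 2.25 FPKM fed and 4.48, 4.26 and 5.69 fasted. Slc30a1 encodes the zinc exporter ZnT1 and measured 4.36, 2.94 and 3.62 FPKM fed and 7.50, 7.39 and 5.31 fasted. Neither gene's groups overlapped, with log2 fold changes of 0.98 ± 0.19 (limma adjusted p = 0.00454) and 0.74 ± 0.18 (limma adjusted p = 0.00925). Of 4 members of the Slc39 family, which bring zinc into the cytosol, 3 fell and 1 did not pass, and with median-ratio scaling none (0 by limma) was called. Slc39a7 measured 72.3, 69.6 and 60.4 FPKM fed and 55.6, 49.6 and 44.6 fasted (-0.43 ± 0.13, limma adjusted p = 0.018). Its exons share 2084 bases with Gm20427 on the same strand, so its values may include reads of that gene. Slc39a11 measured 4.36, 3.92 and 5.43 FPKM fed and 2.05, 2.19 and 3.56 fasted (-0.64 ± 0.20; limma adjusted p = 0.0189). The groups of both lay close together without overlap, and each call was lost without 3 of the 6 libraries in turn, as was that of Slc39a13 (-0.46 ± 0.15). Slc39a1 was 61.0 ± 2.34 FPKM fed and 51.3 ± 0.48 fasted (limma adjusted p = 0.0501), and Slc41a2, of a magnesium transporter family, was not called (adjusted p = 0.0696).

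Among sugar, inositol and nucleotide sugar carriers, 3 rose and 5 fell of 8 tested. Both inositol transporter genes held fell. Slc2a13, the proton-coupled myo-inositol transporter gene, measured 4.32, 4.23 and 4.33 FPKM fed and 1.47, 1.47 and 1.10 fasted. Replicates were tight in both groups (-1.18 ± 0.15; limma adjusted p = 0.00125, and 0.0231 over all annotated genes). Slc5a3, the sodium-coupled myo-inositol transporter gene, measured 5.16, 10.7 and 5.36 FPKM fed and 2.45, 1.13 and 1.86 fasted. It was lower in all fasted libraries (-1.48 ± 0.29; limma adjusted p = 0.00463), and it shares 159 exonic bases with Mrps6 on the same strand, so its values may include reads of that gene.

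Glucose and urate carriers of the Slc2 family did not move one way. Slc2a1 encodes GLUT1, the basal glucose transporter of many cells, endothelium included. It measured 11.1, 5.18 and 6.24 FPKM fed and 16.5, 20.4 and 10.3 fasted. Fed replicate 1 was above fasted replicate 3, so the groups overlapped, and the rise (0.99 ± 0.31; limma adjusted p = 0.0184) was lost without any of fed replicates 2 and 3 and fasted replicates 1 and 2. Slc2a9, a urate carrier gene, measured 0.99, 0.56 and 0.61 FPKM fed and 2.04, 1.68 and 1.42 fasted, a rise without overlap at low levels (0.66 ± 0.18). Slc2a12 fell (-0.51 ± 0.17), a call lost with median-ratio scaling (adjusted p = 0.0707) and without fed replicate 1, fed replicate 3 or fasted replicate 2. Slc2a4, the insulin-regulated glucose transporter gene that is not a member, fell (-0.96 ± 0.14).

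Slc35b1, which serves the endoplasmic reticulum, measured 38.8, 34.5 and 35.1 FPKM fed and 28.0, 27.7 and 26.7 fasted. The fall was small and the groups did not overlap (-0.38 ± 0.11, limma adjusted p = 0.0145), as for Slc35a4 (-0.33 ± 0.12). Both calls were lost with median-ratio scaling (limma adjusted p = 0.194 and 0.369). The call for Slc35b1 was kept in all 6 fits that left out a library, and that for Slc35a4 in 2 of them. Slc45a3 rose (0.57 ± 0.18), a call lost without fasted replicate 2 (limma adjusted p = 0.0673).

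Vitamin carriers outside the Slc25 family went both ways. Slc19a2, a thiamine transporter gene of the plasma membrane, measured 2.89, 1.5 and 1.38 FPKM fed and 4.54, 4.54 and 3.96 fasted. All its fasted values were higher (0.91 ± 0.21; limma adjusted p = 0.00764). For folate, the proton-coupled transporter gene Slc46a1 measured 6.85, 10.9 and 8.71 FPKM fed and 4.26, 3.59 and 3.76 fasted. It was lower in all fasted libraries (-0.99 ± 0.18; limma adjusted p = 0.00353), whereas mitochondrial Slc25a32 rose. The reduced folate carrier gene Slc19a1 measured 11.8, 16.3 and 9.23 FPKM fed and 8.96, 6.59 and 8.93 fasted. Its fall (-0.53 ± 0.22; limma adjusted p = 0.0458) was kept in 1 of the 6 fits that left out a library.

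Of the other members of that class of 8, the nucleoside transporter gene Slc29a3 measured 9.36, 6.68 and 6.99 FPKM fed and 5.77, 5.26 and 5.19 fasted. It fell (-0.43 ± 0.16; limma adjusted p = 0.0329), a call lost without 3 of the 6 libraries in turn and with median-ratio scaling (adjusted p = 0.203). Slc28a2, a concentrative nucleoside transporter gene, Slc44a3, of a choline transporter family, and Slc33a1, the acetyl-CoA transporter gene of the endoplasmic reticulum, were not called (limma adjusted p = 0.0959, 0.062 and 0.0741). In all, this class had 1 rise, 3 falls and 3 genes that did not pass among 7 tested.

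A single fatty acid transporter of the Slc27 family was a member. Slc27a4 encodes FATP4, an acyl-CoA synthetase that promotes fatty acid uptake, and measured 14.4, 17.3 and 13.9 FPKM fed and 8.07, 9.69 and 10.3 fasted. It was lower in every fasted library (-0.64 ± 0.15; limma adjusted p = 0.00694). Slc27a1 (FATP1), the other Slc27 gene held and not a member, rose (2.19 ± 0.32).

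**Figure D4:**
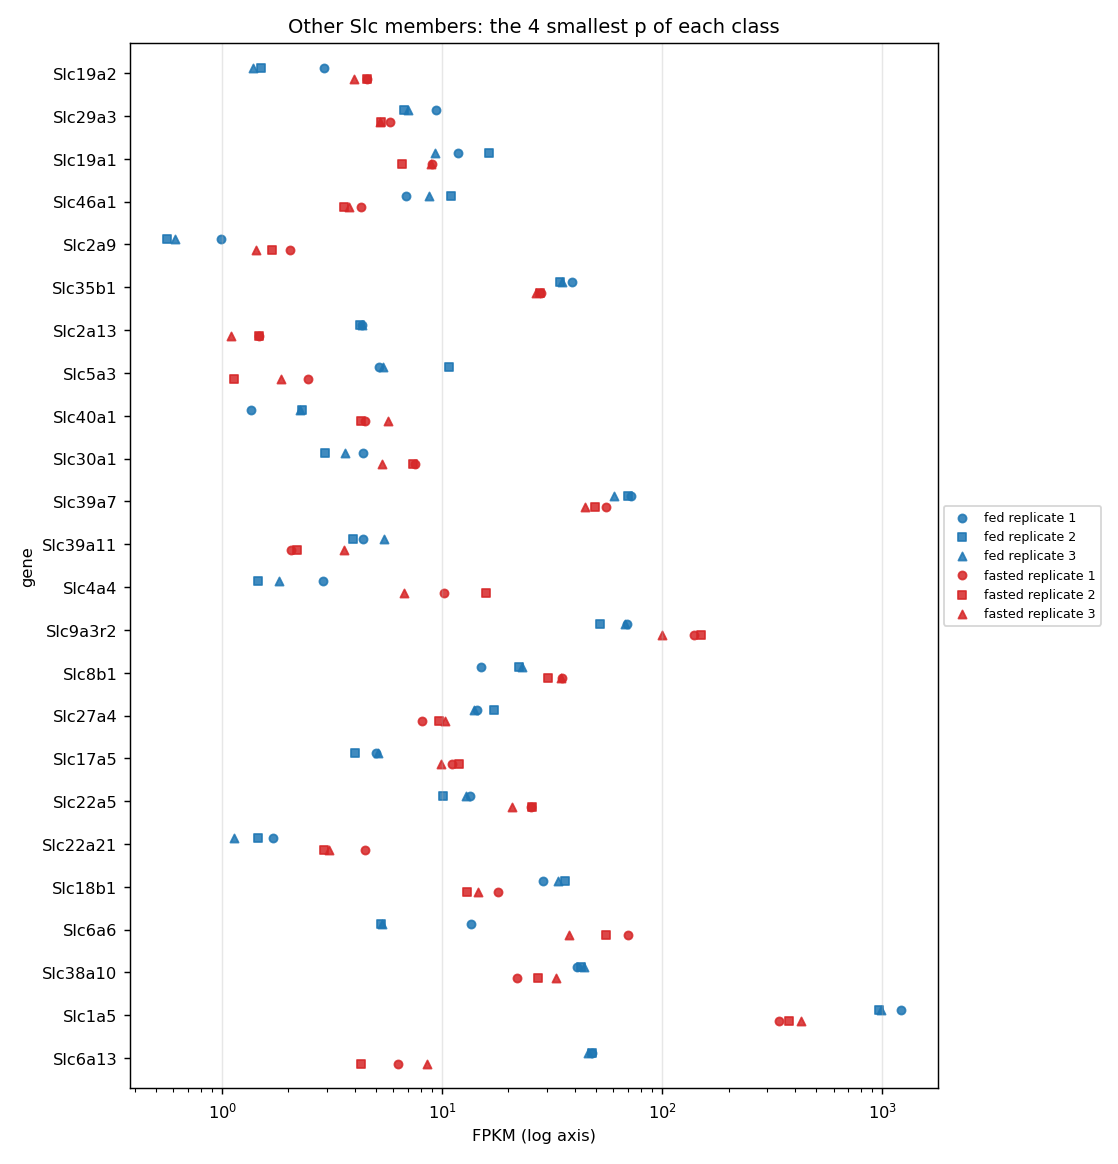
FPKM (log axis) in each of the 3 fed (blue) and 3 fasted (red) libraries for the members outside the Slc25 family with the 4 smallest p of their class (1 gene left out), 1 symbol shape per replicate number, genes on the y axis ordered by class and then by log2 fold change. Slc1a5 lies to the right of all other genes in both groups, and the widest gap between the nearest blue and red symbols is that of Slc6a13.

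The 6 members below a mean of 1 FPKM were not tested above. Slc22a12, a urate transporter gene, was 0.07, 0.03 and 0.05 FPKM fed and 1.02, 2.14 and 1.42 fasted. Slc29a4 was 0.08, 0.13 and 0.02 FPKM fed and 0.76, 0.63 and 0.28 fasted, and Slc24a5 was listed at 0 in all fed libraries and at 0.24, 0.70 and 0.30 in the fasted ones. These 3 had no overlap and were low everywhere, and exons of Slc22a12 and Slc24a5 overlap other genes on the opposite strand. Slc13a3 was 0.70 to 1.09 FPKM fed and 0.31 to 0.40 fasted, and the sodium-calcium exchanger gene Slc8a1 was 0.82 to 0.92 fed and 0.33 to 0.41 fasted. Slc5a7, a choline transporter gene that the family number places among sugar carriers, was 1.12, 0.31 and 0.02 FPKM fed and 0.01, 0.03 and 0 fasted. Fed replicate 1 alone gave most of its fed level, and its groups overlapped. In a fit without the filter on low values, 5 of these 6 passed, beside 90% of all genes, and Slc5a7 did not (limma adjusted p = 0.0954). Of the 31 members that rose, 5 had a fed mean under 1 FPKM and were tested because of their fasted values. These were Slc25a34, Slc22a15, Slc26a10, Slc2a9 and Slc45a3.

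Transporters of other kinds were counted from a list of related genes, beside the same 41.1% rises and 49.4% falls among all tested genes. ABC transporters had 6 rises and 6 falls among 14 tested, ion pumps 1 rise and 5 falls among 6 tested, aquaporins 2 falls of 2, and carriers with an SLC fold under other symbols 2 rises and 5 falls of 8. The genes of this list with the smallest p, beside Slc2a4, Slc27a1 and Slc25a20, were the sterol exporter gene Abcg1 (1.89 ± 0.23), the proton pump subunit gene Atp6v0e2 (-1.20 ± 0.17) and the drug efflux pump gene Abcb1b (1.12 ± 0.18).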

How the data were processed

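Bulk RNA of 3 fed and 3 fasted adipose libraries was analysed from the deposited tables, 1 per library. Per the file headers, the authors deposited FPKM values, rounded to 2 decimals or fewer. RSEM and the builds mm10 and GRCm38.p6 are named in the submitters' processing notes; the aligner, versions and annotation release were not given in the sources used here. The smallest non-zero value was 0.01 or 0.02 FPKM, so reads could not be recovered, depth is unknown and no counting interval is given. Strand is not recorded, so overlapping genes could not be separated. The 3162 genes held are a chosen set, by a rule not stated in the sources used here; adjusted p-values are therefore not genome-wide error rates, and 3158 identifiers matched a symbol.

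The test was limma 3.58.1 in R 4.3.3 (eBayes with a trend, two-sided) on log2(FPKM + 1), which understates changes of low genes, for the 2999 genes whose mean reached 1 FPKM; p-values were adjusted by Benjamini-Hochberg over all of them. It was also run on simulated data in which most genes were unchanged, unlike the genes held, so its error rates here were not tested. Whether the 3 libraries of a group come from separate mice is known only from the design text. Members and lists were chosen with earlier results of these data known. Classes follow family numbers; the division of Slc25 by substrate was made after values were seen. Values of every library are given for Slc25a34, the 4 smallest p of each class and the 3 largest rises and falls; some other members were given them after their values were seen. Of the members, 2 enter every fit and count but are not reported here by name or plotted singly. Alternatives were a pseudocount of 0.1, no filter, median-ratio and quantile scaling, no trend, adjustment over all annotated genes, and leaving out each library. Promoter sequences are from RefSeq (GRCm38.p6); 56 of 73 members had an entry.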

Additional observations from a re-analysis of the deposited data

How the results depend on the processing

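No paired analysis was possible because the labels give no replicate numbers; the numbers 1 to 3 used here follow accession order within a group and only name libraries, so equal numbers do not pair a fed with a fasted library. Of the 67 tested members, none (0) changed direction in limma under any alternative run. Few genes held have a change near 0, so a change of direction was unlikely from the outset. With adjustment over all annotated genes, 172 genes rose and 192 fell (5.74% and 6.4% of the 2999 tested). The counts were 4 and 7 for all Slc members, 0 and 3 for Slc25 and 4 and 4 for other families. With median-ratio scaling 787 genes fell, with 15 Slc members and 11 of other families among them; 13 falls and no rise (0) of the members were lost by limma. The median log2 fold change moved with that scaling to -0.15 for all genes, -0.07 for Slc members and -0.13 for other families, and with quantile scaling to -0.21, -0.15 and -0.22. Over the libraries left out, Slc falls numbered 17 to 26 and those of other families 12 to 21, both lowest without fasted replicate 2; medians ranged from -0.36 to -0.28 for all genes, -0.29 to -0.23 for Slc members, 0.52 to 0.68 for Slc25 and -0.35 to -0.26 for other families. In the fits that left out a library, 42 of the 59 called members were called every time. The cause of these shifts was not tested.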

Other observations

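Mitochondrial carriers without an Slc symbol, named after their values were seen, gave further values. Ucp2, of the uncoupling protein group, went from 169 ± 26.4 to 291 ± 54.5 FPKM (log2 fold change 0.78 ± 0.18; limma adjusted p = 0.00734). Mpc1, a subunit gene of the mitochondrial pyruvate carrier, went from 383 ± 74.1 to 258 ± 15.6 FPKM (-0.55 ± 0.16; limma adjusted p = 0.0137, and 0.0504 with median-ratio scaling). The other subunit gene, Mpc2, was 187 ± 37.8 FPKM fed and 148 ± 13.7 fasted and did not pass (limma adjusted p = 0.102). With p-values adjusted over all annotated genes, neither passed (limma adjusted p = 0.136 for Ucp2, limma adjusted p = 0.253 for Mpc1).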
